A study of Homo sapiens with 24 samples.

Results

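The genes encoding the 8 subunits of TRiC, the cytosolic chaperonin (also called CCT), were followed over the 6 treatment groups. The subunits are TCP1 (alpha), CCT2 (beta), CCT3 (gamma), CCT4 (delta), CCT5 (epsilon), CCT6A (zeta), CCT7 (eta) and CCT8 (theta). They were taken by gene name from the count matrix, and all 8 were found among its 18915 genes. All 8 were also among the 12685 genes with enough counts to be tested.

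The cells were HepG2, an established human hepatoma line, kept in complete DMEM and treated for 10 h. They received bortezomib at 50 nM, nelfinavir at 20 µM, ISRIB at 50 nM, bortezomib and nelfinavir together or bortezomib and ISRIB together at these same doses, or DMSO as the vehicle. Bortezomib inhibits the proteasome, nelfinavir was used by the study to raise phosphorylated eIF2α, and ISRIB makes cells insensitive to it. Each group had 4 libraries, described by the study as biological replicates, all from a single cell line, and 3′ mRNA-Seq reads were counted per gene.

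TRiC is a barrel of a pair of stacked rings, each built from the 8 different subunits in a fixed order, and it closes over unfolded proteins in a cycle driven by ATP. Actin and tubulin depend on it, as do many proteins with WD40 propellers, such as the beta subunits of G proteins and the activators of the anaphase-promoting complex. Prefoldin hands nascent actin and tubulin to the chaperonin, and phosducin-like proteins act with it. The subunits are paralogs with similar ATP-binding domains and different substrate-binding surfaces, and a complete ring needs each of them.

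Total counts per library ran from 5154533 to 6943164, and the 8 TRiC genes together held between 12415 and 20342 of them. Of the 8 hepatocyte markers checked, all 8 were detected in every library, at 19.9 CPM of the library total or more, and LYVE1 of the liver sinusoid did not exceed 1.33 CPM. PTPRC, PECAM1 and COL1A2, also chosen as markers of other cells, were absent from the count matrix. All 18915 genes of the matrix had a count in some library, so absence may mean that these markers had none. Omission for another reason could not be checked. Mitochondrially encoded genes held 20.0% to 23.1% of the counts in DMSO, 32.8% to 35.5% in bortezomib, 24.9% to 29.6% when nelfinavir was added to it and 32.6% to 40.2% when ISRIB was. Some libraries stood apart from the others of their group. In bortezomib with nelfinavir, replicates 1 and 2 differed from replicates 3 and 4 with a chi-square over genes of 14.1 to 21.8 per degree of freedom, against 4.13 between replicates 1 and 2 and 7.71 between replicates 3 and 4. In bortezomib with ISRIB, replicates 3 and 4 differed with a chi-square of 23.7 per degree of freedom, the highest of all replicate pairs. Values without those libraries are given where they changed a call, a direction or a value by much.

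On GRCh37 the 8 genes lie apart on 7 chromosomes: TCP1 (ENSG00000120438) at chr6:160199530-160210735, CCT2 (ENSG00000166226) at chr12:69979206-69995350, CCT3 (ENSG00000163468) at chr1:156278759-156337664, CCT4 (ENSG00000115484) at chr2:62095220-62115806, CCT5 (ENSG00000150753) at chr5:10250041-10266501, CCT6A (ENSG00000146731) at chr7:56119378-56131682, CCT7 (ENSG00000135624) at chr2:73460548-73480149 and CCT8 (ENSG00000156261) at chr21:30428126-30446118. TCP1, CCT3, CCT4 and CCT8 are read from the minus strand. No other stretch of the genome of at least 80 bases matched the last 500 bases of any of their transcripts at 97% identity or more. The closest match was CCT8P1, a processed pseudogene of CCT8, at 92.8% over 514 bases.

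The promoters of 7 of the 8 genes were found in the RefSeq table (GRCh38.p14), which covers 250 bases before to 50 bases after a transcription start, and CCT6A had no entry. The 250 bases before the start are shown for TCP1 and CCT4, which had the largest changes with bortezomib, and for CCT2 and CCT7, which had the smallest. Heat shock factors bind inverted repeats of short GAA units, and the capitals mark GAANNTTC, a head-to-head pair of such units. The windows are chr6:159789603-159789852 (minus strand) for TCP1, chr2:61888657-61888906 (minus strand) for CCT4, chr12:69585639-69585888 (plus strand) for the downstream start of CCT2 and chr2:73234058-73234307 (plus strand) for CCT7.
TCP1: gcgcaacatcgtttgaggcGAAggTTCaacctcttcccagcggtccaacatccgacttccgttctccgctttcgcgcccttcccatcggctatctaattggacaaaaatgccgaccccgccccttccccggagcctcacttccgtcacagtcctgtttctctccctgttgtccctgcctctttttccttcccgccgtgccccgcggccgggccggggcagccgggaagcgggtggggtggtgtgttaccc
CCT4: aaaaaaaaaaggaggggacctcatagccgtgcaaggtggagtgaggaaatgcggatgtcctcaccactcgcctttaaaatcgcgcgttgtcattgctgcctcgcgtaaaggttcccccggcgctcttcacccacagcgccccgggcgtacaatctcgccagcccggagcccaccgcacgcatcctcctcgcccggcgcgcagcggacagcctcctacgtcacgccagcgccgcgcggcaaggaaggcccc
CCT2: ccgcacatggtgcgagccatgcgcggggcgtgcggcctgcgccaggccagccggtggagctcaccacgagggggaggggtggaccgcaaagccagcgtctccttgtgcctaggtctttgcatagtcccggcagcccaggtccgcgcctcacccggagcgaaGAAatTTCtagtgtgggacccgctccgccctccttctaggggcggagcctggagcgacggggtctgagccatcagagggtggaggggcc
CCT7: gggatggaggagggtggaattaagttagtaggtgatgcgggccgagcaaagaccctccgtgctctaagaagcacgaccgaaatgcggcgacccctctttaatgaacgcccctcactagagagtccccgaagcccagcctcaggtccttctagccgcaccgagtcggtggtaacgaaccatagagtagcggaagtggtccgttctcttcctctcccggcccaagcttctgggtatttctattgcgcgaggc

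GAANNTTC was present 231 bases before the start of TCP1 and 89 bases before the downstream start of CCT2, so in 2 of the 7 genes with a promoter entry. The window of the upstream start of CCT2, not shown, did not hold it. Over all 27305 genes of the table, 8.21% had this motif in a window of the same length. The tail-to-tail pair TTCNNGAA occurred 38 bases after the start in 1 of the 2 windows of CCT4, outside the stretch shown, and in 9.46% of all genes. CACGTG, the E-box, was in none of the windows of the 7 genes and in 8.77% of all genes. Both strands were searched, and each of the 3 motifs reads the same on either strand. TCP1, with the largest change, and CCT2, among the smallest, thus both had the head-to-head pair, CCT2 only at its downstream start. The match of letters is a description and does not show binding.

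In DMSO, the tags for CCT6A were the most frequent of the 8, at 548 ± 17.1 CPM (SD, n = 4), and those for CCT8 the least frequent, at 206 ± 17.5 CPM (SD, n = 4). CPM (counts per 1000000 counts of a library) are given after scaling of the library totals with edgeR's TMM factors. Since a 3′ library yields reads near the end of a transcript, these counts do not scale with transcript length. TCP1 (300 ± 17.8 CPM), CCT4 (295 ± 8.22), CCT5 (285 ± 7.54) and CCT3 (283 ± 2.35) lay close together in DMSO (SD, n = 4 each), with ranges that overlapped between neighbours. CCT7 (243 ± 7.08) and CCT2 (237 ± 8.23) also overlapped each other. In all 6 groups CCT6A had the highest level, and the highest subunit exceeded the lowest by 2.25-fold to 2.75-fold.

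**Figure D1:**
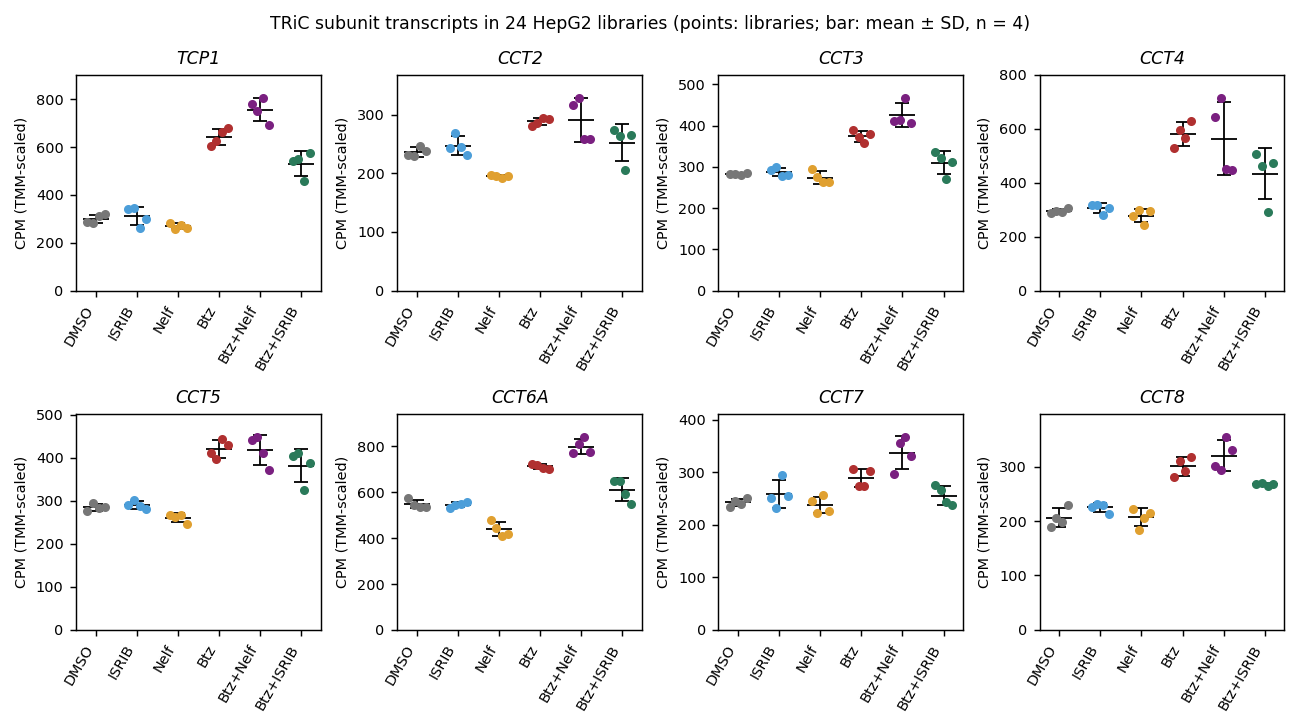
CPM after TMM scaling (vertical axes, from 0) of each TRiC gene in the 4 libraries of each of the 6 groups, with the mean and SD as bars. In each of the 8 panels the 4 bortezomib libraries lie above the 4 DMSO libraries, and CCT4 splits within bortezomib with nelfinavir into 2 libraries at 642 and 715 and 2 at 450 and 446 CPM; against library totals alone, the bortezomib mean lies below DMSO for CCT2, CCT3, CCT6A and CCT7.

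With bortezomib alone, all 8 TRiC genes rose against DMSO with TMM scaling, by 1.19-fold to 2.14-fold, while with library totals alone TCP1 and CCT4 still rose and CCT2 and CCT7 fell. The largest values were those of TCP1 and CCT4. Over all 12685 genes tested, 27.6% were called higher in this comparison and 25.8% lower. The 4 bortezomib libraries lay above the 4 DMSO libraries for 8 of the 8 TRiC genes, and for 25.6% of all genes. Counts measure a transcript relative to the others in the library, and the amount of RNA per cell was not measured. A change in all cells and a larger one in part of them cannot be told apart in bulk RNA.

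TCP1, which gave the complex its name (t-complex polypeptide), was counted at 289, 282, 312 and 318 CPM in the 4 DMSO libraries. In bortezomib it stood at 604, 625, 662 and 679 CPM. The lowest bortezomib library was thus well above the highest DMSO library, and the 4 libraries of a group lay close together. The log2 fold change was 1.10 (adjusted p = 1.14e-12, SE 0.0863 by the quasi-likelihood test of edgeR, adjusted by Benjamini-Hochberg over all genes tested), or 2.14-fold. With library totals alone it was 0.60, and the call held in all 9 alternative settings and without each of the 8 libraries in turn.

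CCT4, which sits next to TCP1 in the ring, was at 288, 294, 292 and 307 CPM in DMSO and at 527, 597, 566 and 629 CPM in bortezomib. The groups were again far apart, with more spread among the bortezomib libraries than for TCP1. The log2 fold change was 0.97 (adjusted p = 1.06e-07, SE 0.129), or 1.96-fold, and 0.47 with library totals alone (adjusted p = 0.00128).

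A middle set was formed by CCT5, CCT8, CCT3 and CCT6A. CCT5, a subunit that binds ATP strongly, went from 285 ± 7.54 to 420 ± 20.8 CPM (SD, n = 4 each), a difference of 0.56 on the log2 scale (adjusted p = 2.45e-07, SE 0.0775). CCT8 went from 206 ± 17.5 to 301 ± 17.2 CPM with 0.55 (adjusted p = 6.21e-07, SE 0.0799). CCT3 went from 283 ± 2.35 to 374 ± 13.3 CPM with 0.40 (adjusted p = 2.29e-05, SE 0.0739). CCT6A, the zeta subunit of somatic tissues, went from 548 ± 17.1 to 713 ± 10.1 CPM with 0.38 (adjusted p = 3.03e-05, SE 0.0708). None of these 4 genes was called with library totals alone, where their log2 fold changes were 0.06, 0.05, −0.09 and −0.12.

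CCT2 and CCT7 changed least. CCT2 was at 231, 229, 247 and 239 CPM in DMSO and at 281, 285, 295 and 293 CPM in bortezomib, groups that do not overlap. Its log2 fold change was 0.29 (adjusted p = 0.00580, SE 0.0867), and it was not called without the low-count filter (adjusted p = 0.0790) or without DMSO replicate 2 (0.22, adjusted p = 0.0550). CCT7 was at 234, 246, 240 and 251 CPM in DMSO and at 305, 273, 274 and 303 CPM in bortezomib, 0.25 higher on the log2 scale (adjusted p = 0.0119, SE 0.0840). The call for CCT7 was lost with upper-quartile factors, without the low-count filter, and without DMSO replicate 2 or bortezomib replicate 1, 2 or 4, with adjusted p-values up to 0.156. With library totals alone both genes were called lower, CCT2 at −0.21 (adjusted p = 0.0336) and CCT7 at −0.25 (adjusted p = 0.0115).

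The scaling sets the zero against which these changes are read. With library totals alone, the median log2 fold change of all genes was −0.50 for bortezomib against DMSO, −0.55 for bortezomib with nelfinavir against nelfinavir and −0.52 for bortezomib with ISRIB against ISRIB. Relative to that median, the 8 TRiC genes lay between 0.25 and 1.09 above it for bortezomib against DMSO with library totals alone, and between 0.25 and 1.10 above it with TMM factors. A change of scaling shifts all genes by nearly the same amount, so the order of the subunits and the distances between them could hardly move. The count of calls went from 8 higher and 0 lower to 2 higher and 2 lower. Over all genes, library totals alone gave 11.7% called higher and 49.4% called lower. The share of higher genes among all called genes fell from 51.6% to 19.2%. The median over the 8 TRiC genes was 0.48 with TMM factors, against 0.002 over all genes.

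**Figure D2:**
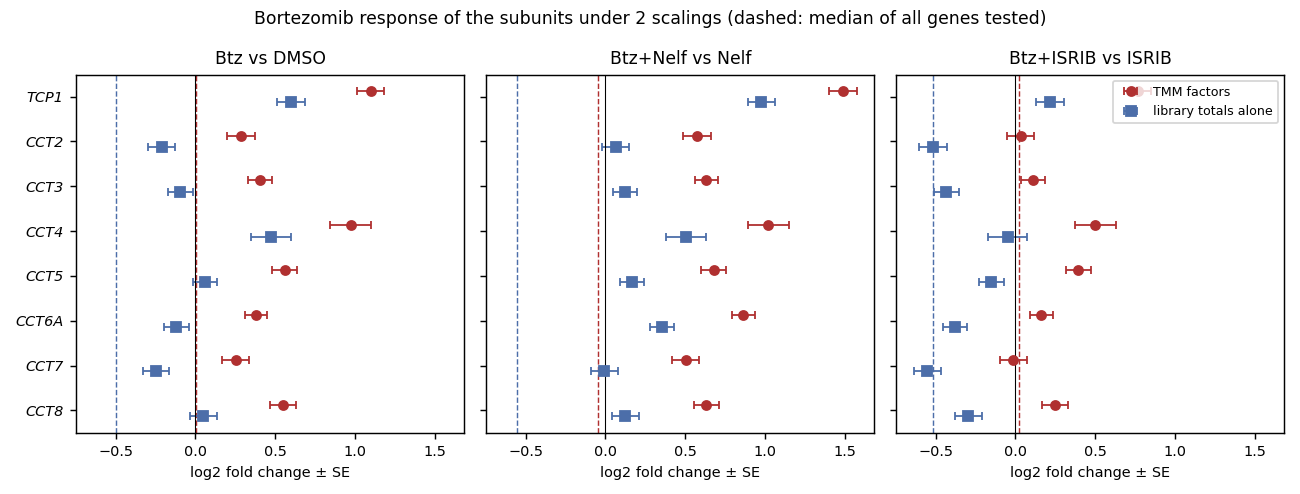
Log2 fold change with SE (horizontal axes) of each TRiC gene for bortezomib against DMSO, bortezomib with nelfinavir against nelfinavir, and bortezomib with ISRIB against ISRIB, with TMM factors (circles) and with library totals alone (squares), and the median of all tested genes as dashed lines. For bortezomib against DMSO all 8 circles lie above 0, whereas CCT2, CCT3, CCT6A and CCT7 lie below 0 with library totals alone, and the 8 genes lie above the dashed line of their scaling in the left and middle panels.

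A quantity that no scaling can move is the share of each subunit in the summed counts of the 8 genes of a library. TCP1 took 12.5% ± 0.587 of them in DMSO and 17.8% ± 0.588 in bortezomib (SD, n = 4 each), and CCT4 took 12.3% ± 0.150 and 16.1% ± 0.871. In both cases the lowest bortezomib library was above the highest DMSO library. The shares of CCT6A (22.9% ± 0.993 to 19.8% ± 0.745), CCT7 (10.1% ± 0.194 to 8.01% ± 0.502), CCT2 (9.87% ± 0.320 to 8.0% ± 0.152) and CCT3 (11.8% ± 0.136 to 10.4% ± 0.473) were lower in bortezomib, without overlap between the groups. CCT5 (11.9% ± 0.347 and 11.6% ± 0.518) and CCT8 (8.58% ± 0.593 and 8.33% ± 0.335) overlapped. Shares of 1 total cannot all move the same way, and they are given as a description, without a test.

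**Figure D3:**
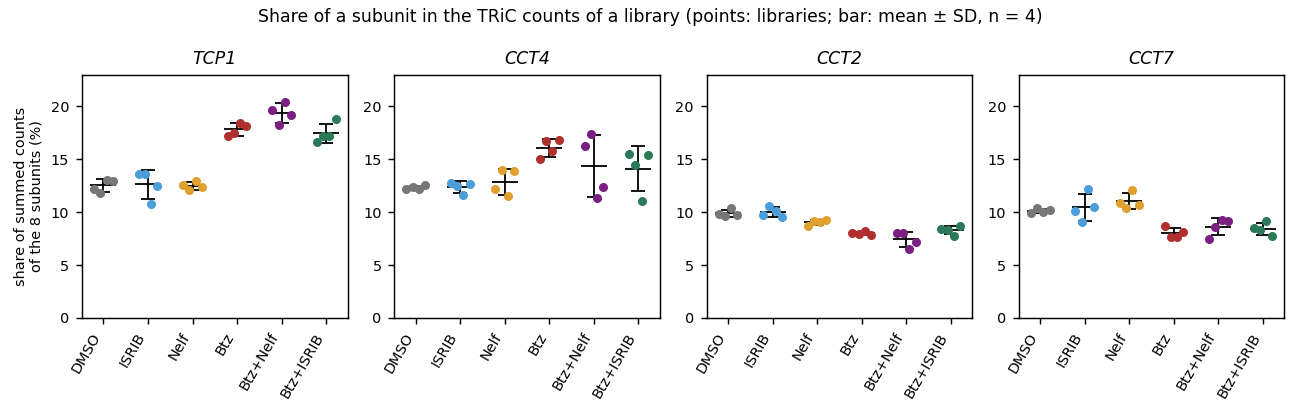
Share of TCP1, CCT4, CCT2 and CCT7 in the summed counts of the 8 TRiC genes of each library (vertical axes, percent, from 0), with the mean and SD of the 4 libraries of each group. TCP1 takes 11.9% to 13.1% in DMSO and 17.2% to 18.4% in bortezomib, CCT2 and CCT7 are lower in bortezomib than in DMSO, and replicates 3 and 4 of bortezomib with nelfinavir show low shares of CCT4, at 11.4% and 12.4%.

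Summed over the 8 genes, the level was 2396 ± 39.9 CPM in DMSO, 2471 ± 57.4 in ISRIB and 2161 ± 70.3 in nelfinavir (SD, n = 4 each). It was 3607 ± 90.6 CPM in bortezomib, 3910 ± 212 with nelfinavir added and 3041 ± 269 with ISRIB added. The 3 groups with bortezomib were thus above the 3 without it when TMM-scaled. As CPM of the library total, the sums were 2894 in DMSO, 2566 in nelfinavir, 2946 in ISRIB, 3084 in bortezomib, 3259 when nelfinavir was combined with it and 2486 when ISRIB was, so that the last was then the lowest.

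When bortezomib was added to cells that also received nelfinavir, all 8 TRiC genes rose against nelfinavir alone with TMM scaling, and 3 of them (TCP1, CCT4 and CCT6A) with library totals alone, where CCT7 was at −0.01. Of all genes, 28.7% were called higher and 28.4% lower with TMM scaling, and 12.5% and 51.4% with library totals alone. The libraries of the groups did not overlap for any of the 8 genes, against 24.7% of all genes with bortezomib and nelfinavir on the upper side. TCP1 was at 284, 259, 274 and 262 CPM with nelfinavir and at 778, 750, 806 and 693 CPM with both drugs. The groups were far apart, and the log2 fold change was 1.49 (adjusted p = 7.17e-16, SE 0.0870), a level 180% higher. CCT6A was at 479, 445, 410 and 420 CPM with nelfinavir and at 770, 810, 841 and 774 CPM with both (log2 fold change 0.86, adjusted p = 3.40e-12, SE 0.0712).

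CCT4 was at 275, 298, 243 and 294 CPM with nelfinavir, and at 642, 715, 450 and 446 CPM with both drugs. Replicates 1 and 2 of the combination were above its replicates 3 and 4, the same split that the libraries show over all genes, and the coefficient of variation was 24.2% against 2.78% in DMSO. The log2 fold change was 1.02 (adjusted p = 4.00e-08, SE 0.129), 0.69 without both replicates 1 and 2 of the combination and 1.25 without both replicates 3 and 4. The remaining 5 genes had log2 fold changes from 0.50 (CCT7, adjusted p = 5.43e-06) to 0.68 (CCT5, adjusted p = 5.36e-09). All 8 genes were called without each of the libraries of these groups in turn, and without either pair.

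In the presence of ISRIB, 4 of the 8 TRiC genes rose with bortezomib under TMM scaling, whereas with library totals alone TCP1 was the only one called higher and CCT2, CCT3, CCT6A, CCT7 and CCT8 were called lower. Of all genes, 29.1% were called higher and 25.6% lower with TMM scaling, and 12.1% and 50.4% with library totals alone, so that 5 of 8 lower is not far from the background of that scaling. TCP1 was at 340, 346, 261 and 302 CPM with ISRIB and at 541, 550, 457 and 575 CPM with both drugs, without overlap, and its log2 fold change was 0.77 (adjusted p = 3.87e-09, SE 0.0860), or 1.70-fold. CCT4 was at 319, 318, 281 and 306 CPM with ISRIB and at 505, 461, 293 and 473 CPM with both. Here replicate 3 of the combination fell within the range of ISRIB alone, and the log2 fold change was 0.50 (adjusted p = 0.00138, SE 0.129).

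CCT5 rose by 0.39 on the log2 scale (adjusted p = 6.09e-05, SE 0.0775) and CCT8 by 0.25 (adjusted p = 0.00949, SE 0.0799). The call for CCT8 was lost without any 1 of the 4 libraries with both drugs (adjusted p from 0.0712 to 0.0902), and with RLE factors, upper-quartile factors, TMM without the mitochondrially encoded genes, or no filter. Without both replicates 3 and 4 of the combination CCT8 was not called either (0.19, adjusted p = 0.122), while TCP1, CCT4 (0.60) and CCT5 (0.42) were. With library totals alone CCT4 (−0.05), CCT5 (−0.15) and CCT8 (−0.30) changed sign. CCT6A (0.16, adjusted p = 0.0525), CCT3 (0.11), CCT2 (0.03) and CCT7 (−0.01) did not pass the test, with 95% intervals of 0.02 to 0.31, −0.04 to 0.26, −0.15 to 0.21 and −0.18 to 0.16.

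With nelfinavir alone CCT6A and CCT2 fell, and the other 6 TRiC genes did not pass the test. In this comparison with DMSO, 10.4% of all genes were called higher and 8.84% lower. CCT6A, at 573, 543, 538 and 537 CPM in DMSO, was at 479, 445, 410 and 420 CPM with nelfinavir, without overlap. The log2 fold change was −0.32 (adjusted p = 0.00102, SE 0.0708), a level that fell by 19.9%. CCT2 was at 197, 195, 192 and 196 CPM with nelfinavir, all below the 229 CPM of the lowest DMSO library (log2 fold change −0.28, adjusted p = 0.0207, SE 0.0866). This call was lost without DMSO replicate 3 (−0.25, adjusted p = 0.0672) or nelfinavir replicate 3 (−0.27, adjusted p = 0.0532).

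The other 6 genes had log2 fold changes from −0.15 for TCP1 (95% interval −0.33 to 0.02) to 0.01 for CCT8 (95% interval −0.15 to 0.17). The median over the 8 genes was −0.11, against 0.01 over all genes.

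With nelfinavir added to bortezomib, TCP1 and CCT7 were called higher than with bortezomib alone. Among all genes 15.6% were called higher and 13.4% lower, so that 2 of 8 is not far from the background. TCP1 rose by 0.24 on the log2 scale (adjusted p = 0.0352, SE 0.0851), with each of the libraries with both drugs above each with bortezomib alone. CCT7 was at 296, 355, 367 and 330 CPM with both drugs, against 305, 273, 274 and 303 with bortezomib, with replicate 1 of the combination within the bortezomib range (log2 fold change 0.22, adjusted p = 0.0448, SE 0.0841). CCT3 (0.18, adjusted p = 0.0596) and CCT6A (0.16, adjusted p = 0.0794) lay just beyond the threshold, and CCT8 (0.09), CCT2 (0.01), CCT5 (−0.01) and CCT4 (−0.04) were further from it.

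These calls depended on the scaling and on the libraries. Neither gene was called with upper-quartile factors, with library totals alone or with only the groups compared, where the adjusted p-values ran from 0.0799 to 0.145, and CCT7 was also lost with TMM without the mitochondrially encoded genes (adjusted p = 0.0550). With replicates 3 and 4 of the combination alone, CCT3 (0.27, adjusted p = 0.0207), CCT6A (0.23, adjusted p = 0.0470), CCT7 (0.32, adjusted p = 0.0118) and TCP1 (0.27, adjusted p = 0.0440) were called, and with replicates 1 and 2 alone none of the 8 was. CCT4 was at 678 CPM on average in replicates 1 and 2 and at 448 CPM in replicates 3 and 4, and its log2 fold change was 0.24 (adjusted p = 0.181) with the first pair and −0.32 (adjusted p = 0.0538) with the second. CCT2 turned in the same way, at 0.17 and −0.11. TCP1 was not called without bortezomib replicate 1 (adjusted p = 0.0535), and CCT7 was not called without bortezomib replicate 2 or 3. Without replicate 3 of the combination neither TCP1 nor CCT7 was called, and without its replicate 1 or 4 the called genes were 4.

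The change on adding nelfinavir differed with and without bortezomib for CCT6A and TCP1, by a test of the difference itself. For CCT6A, lower with nelfinavir alone and at 0.16 in the presence of bortezomib, the interaction was 0.48 on the log2 scale (adjusted p = 0.000615, SE 0.10). For TCP1 it was 0.39 (adjusted p = 0.0201, SE 0.121). All 8 interactions were above 0 with TMM scaling and all libraries, with a median of 0.24 against −0.02 over all genes, and 9.74% of all genes were called higher and 10.0% lower. CCT2 (0.29, adjusted p = 0.0972), CCT7 (0.25), CCT3 (0.23), CCT5 (0.12), CCT8 (0.08) and CCT4 (0.05) did not pass the test.

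Both interactions were called in all 9 alternative settings, in all 16 fits that left out 1 library of the 4 groups, and with either pair of libraries of bortezomib with nelfinavir. The adjusted p-values with 1 library left out reached 0.0475 for TCP1 and 0.00232 for CCT6A. CCT2 was also called without both replicates 3 and 4 of the combination (0.45, adjusted p = 0.00881), and CCT3 (0.32, adjusted p = 0.0489) and CCT7 (0.35, adjusted p = 0.0445) without both replicates 1 and 2. CCT4 turned to −0.23 (adjusted p = 0.331) without both replicates 1 and 2, and CCT8 to −0.01 without both replicates 3 and 4. The interactions share their libraries with the single comparisons above.

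**Figure D4:**
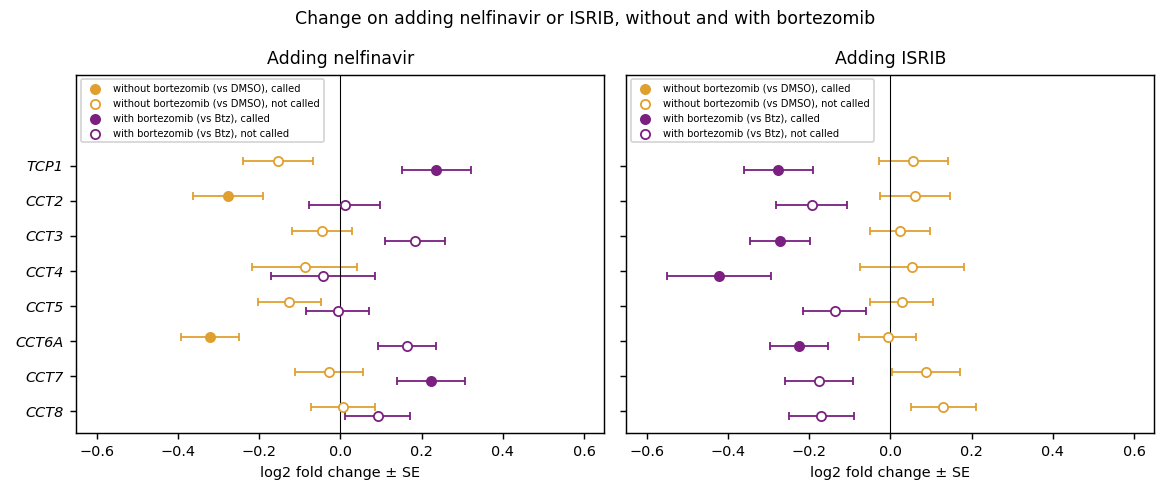
Log2 fold change with SE (horizontal axes) of each TRiC gene on adding nelfinavir (left) or ISRIB (right), without bortezomib (against DMSO) and with it (against bortezomib), with filled points at an adjusted p under 0.05. Adding nelfinavir gave −0.32 for CCT6A without bortezomib and 0.16 with it, and adding ISRIB gave values from −0.01 to 0.13 without bortezomib and from −0.42 to −0.14 with it.

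With ISRIB alone, 0 of the 8 TRiC genes and 0.0% of all genes were called higher or lower than in DMSO by edgeR, and 0 of the 8 had an unadjusted p under 0.05, as did 703 of the 12685 genes. DESeq2 called 1 of all genes higher and 18 lower, edgeR without the filter 5 and 34, and edgeR on these 2 groups alone 4 and 76. The TRiC genes had log2 fold changes from −0.01 (CCT6A, 95% interval −0.15 to 0.14) to 0.13 (CCT8, 95% interval −0.03 to 0.29). The widest interval was that of CCT4, −0.21 to 0.31.

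With ISRIB added to bortezomib, all 8 TRiC genes had lower means than with bortezomib alone and 4 of them, CCT3, CCT4, TCP1 and CCT6A, passed the test. Of all genes, 5.34% were called lower and 6.91% higher. The libraries of the groups did not overlap for 6 of the 8 TRiC genes, with ISRIB on the lower side, as for 5.98% of all genes. CCT4 fell by 0.42 on the log2 scale (adjusted p = 0.0268, SE 0.128), from 580 ± 43.5 to 433 ± 95.1 CPM (SD, n = 4 each), with replicate 3 of the combination at 293 CPM and the other 3 libraries between 461 and 505. TCP1 fell by 0.28 (adjusted p = 0.0294, SE 0.0854), from 643 ± 34.1 to 531 ± 51.0 CPM. CCT3 fell by 0.27 (adjusted p = 0.0129, SE 0.0743) and CCT6A by 0.22 (adjusted p = 0.0334, SE 0.0709). With only the groups compared CCT4 alone was called, and without the low-count filter the calls for CCT3 (adjusted p = 0.0534) and CCT6A (adjusted p = 0.116) were lost.

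CCT2 (−0.19), CCT7 (−0.18), CCT8 (−0.17) and CCT5 (−0.14) had adjusted p-values from 0.151 to 0.262. With library totals alone CCT2 was called lower as well (−0.26, adjusted p = 0.0456 by edgeR). CCT8 was at 267, 270, 264 and 268 CPM in bortezomib with ISRIB, a narrow range just below the 281 CPM of its lowest bortezomib library.

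Replicate 3 of bortezomib with ISRIB had the lowest level of its group for TCP1, CCT2, CCT3, CCT4, CCT5 and CCT8. Without it none of the 8 genes was called, although the direction remained: CCT4 was at −0.28 (adjusted p = 0.0962), TCP1 at −0.22 (adjusted p = 0.115), CCT3 at −0.22 (adjusted p = 0.0748) and CCT6A at −0.21 (adjusted p = 0.0791). Without both replicates 3 and 4, the adjusted p of these 4 genes ran from 0.142 to 0.355. Leaving out bortezomib replicate 4 left CCT3 as the only one called, leaving out bortezomib replicate 2 or 3 left 2 genes each, and without bortezomib replicate 1, or replicate 1 or 4 of the combination, 1 gene was lost each time.

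Whether ISRIB acted differently with and without bortezomib was tested in the same way. All 8 interactions were below 0, from −0.16 (CCT5) to −0.47 (CCT4), with a median of −0.28 against 0.01 over all genes. None of the 8 passed the test, with adjusted p-values from 0.102 to 0.461. An unadjusted p under 0.05 was found for 7 of the 8, against 2317 of the 12685 genes tested. Of all genes, 1.89% were called lower and 2.93% higher. Without ISRIB replicate 3, TCP1 was called (−0.41, adjusted p = 0.0357), CCT3 was called by DESeq2 and CCT4 without the low-count filter. Without both replicates 3 and 4 of bortezomib with ISRIB the interactions ran from −0.09 (CCT5) to −0.33 (CCT4), and CCT6A went from −0.22 to −0.14.

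**Figure D5:**
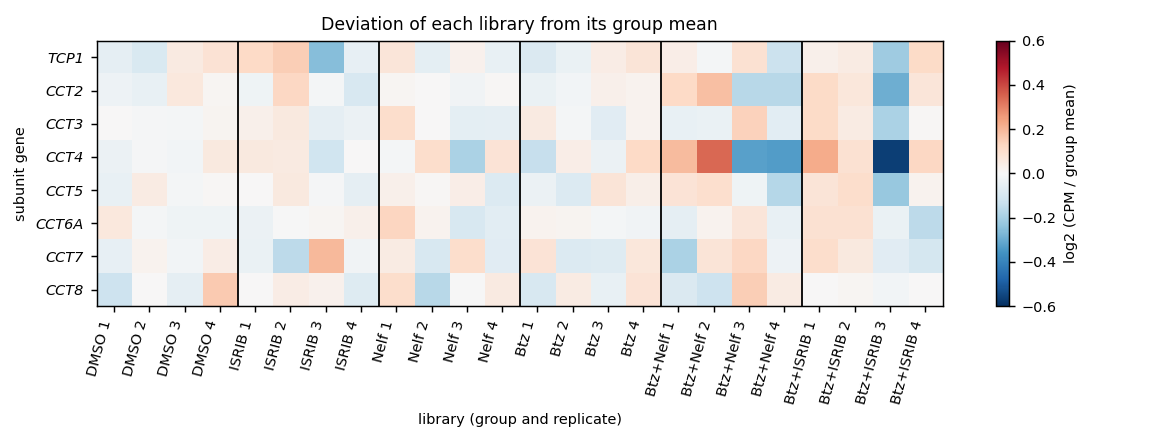
Log2 ratio of each library to the mean of its group (colour, from −0.6 in blue to 0.6 in red) for the 8 TRiC genes (rows) in the 24 libraries (columns, by group and replicate). CCT4 is high in replicates 1 and 2 and low in replicates 3 and 4 of bortezomib with nelfinavir, at 642, 715, 450 and 446 CPM, and low in replicate 3 of bortezomib with ISRIB, at 293 CPM.

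CCT4 varied most between libraries in those same 2 groups: its coefficient of variation was 24.2% when bortezomib was combined with nelfinavir and 22% when it was combined with ISRIB, and between 2.78% and 9.06% in the other 4. For TCP1 it stayed between 4.19% and 12.6% in the 6 groups. In bortezomib with nelfinavir, the share of CCT4 in the TRiC counts was 16.2% and 17.4% in replicates 1 and 2 and 11.4% and 12.4% in replicates 3 and 4, near the 12.3% of DMSO. The share of mitochondrially encoded counts in these libraries was 28.5% and 29.6% in replicates 1 and 2 and 24.9% and 25.6% in replicates 3 and 4. In bortezomib with ISRIB, replicate 3 had the lowest of those shares, 32.6%, and replicate 4 the highest, 40.2%. The part of these differences in the spread of CCT4 was not tested.

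Ordered by level with TMM scaling, the groups followed much the same sequence for each gene. Nelfinavir alone was lowest for 7 of the 8 genes, and DMSO and ISRIB came next for all of these but CCT7, with no test passed between DMSO and ISRIB. For CCT8 the lowest were DMSO and nelfinavir, at 206 and 207 CPM. Bortezomib with ISRIB came above these 3 for 7 genes, CCT7 being the exception, where it stood at 256 ± 17.9 CPM, below the 258 ± 26.9 CPM of ISRIB. The highest 2 groups were bortezomib and bortezomib with nelfinavir for all 8 genes. For CCT4 and CCT5 bortezomib alone had the higher mean of these 2, by less than the spread between libraries. As CPM of the library total the sequence was different: bortezomib and bortezomib with nelfinavir were the highest 2 groups for 3 genes (TCP1, CCT4 and CCT5), and bortezomib with ISRIB was the lowest for 5.

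The 3′ ends of TCP1, CCT4 and CCT5 overlap a gene on the opposite strand. The last 500 bases of TCP1 lie within ACAT2, which encodes a cytosolic acetyl-CoA acetyltransferase of sterol synthesis, and 339 of them are annotated as ACAT2 exon. ACAT2 was at 293 ± 14.7 CPM in DMSO and 161 ± 13.4 in bortezomib (SD, n = 4 each), a log2 fold change of −0.86 (adjusted p = 9.54e-10, SE 0.0909), against 1.10 for TCP1. On adding ISRIB to bortezomib it rose by 0.47 (adjusted p = 0.000611, SE 0.0916), where TCP1 fell. The strand setting of the counting is not given in the sources used here. It is thus uncertain how reads from this overlap were assigned. The last 500 bases of CCT5 all lie in an exon of the antisense gene CTD-2256P15.4 (ENSG00000271980), which had 3 counts in the 24 libraries together. For CCT4, 153 of the last 500 bases lie in an exon of the antisense lncRNA ENSG00000236498, which was not analysed here. TSACC lies within CCT3 on the other strand, away from its 3′ end, and did not exceed 2.22 CPM in the mean of any group.

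The genes that work with TRiC moved in both directions with bortezomib. Their counts can be read against the 27.6% of all genes called higher and 25.8% called lower with TMM scaling, and the 11.7% and 49.4% with library totals alone, and for prefoldin and the clients they lie not far from them. Of 6 prefoldin subunits, 2 rose and 0 fell, with a median log2 fold change of 0.04, and 1 rose and 3 fell with library totals alone. PFDN4 rose from 161 ± 11.8 to 287 ± 10.6 CPM (SD, n = 4 each; log2 fold change 0.83, adjusted p = 1.72e-11, SE 0.0735). Of 3 phosducin-like cofactors, 1 rose, PDCL, by 0.64 (adjusted p = 0.00454, SE 0.187), a call that was lost with library totals alone (0.13, adjusted p = 0.539) and without bortezomib replicate 3 (0.38, adjusted p = 0.0944). Of 4 paralogs and chaperonin-like genes, 3 fell, among them MKKS, which belongs to the complex that assembles the BBSome, by 0.61 (adjusted p = 2.55e-05, SE 0.113).

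Of 6 tubulin folding cofactors, which take tubulin over from TRiC, 3 rose and 3 fell, or 2 and 3 with library totals alone. TBCA, a chaperone of beta-tubulin, rose from 431 ± 16.3 to 833 ± 35.5 CPM (SD, n = 4 each; log2 fold change 0.95, adjusted p = 5.72e-13, SE 0.0724), and ARL2, a small GTPase that regulates the cofactors, fell by 0.84 (adjusted p = 8.98e-05, SE 0.170). Of 20 clients of TRiC, 7 rose and 7 fell, with a median of 0.09, and 3 rose and 12 fell with library totals alone. GNB1, a G protein beta subunit, rose by 0.83 (adjusted p = 1.43e-11, SE 0.0723), and CDC20, an activator of the anaphase-promoting complex, fell from 104 ± 13.8 to 44 ± 7.41 CPM (log2 fold change −1.25, adjusted p = 1.48e-10, SE 0.121). The actin genes, picked after their values were seen, moved apart: ACTB fell by 0.82 (adjusted p = 1.81e-09, SE 0.0888) and ACTG1 rose by 0.40 (adjusted p = 0.000747, SE 0.0961), the latter at −0.10 with library totals alone.

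Against these, all 18 of the heat shock chaperones on the list rose with bortezomib under TMM scaling, with a median log2 fold change of 1.48, and 15 rose and 1 fell with library totals alone. The TRiC genes had a median of 0.48. HSPA1B, an inducible HSP70, had the smallest p among them, at 5.23 on the log2 scale (adjusted p = 4.71e-26, SE 0.124), and its reads cannot be told apart with certainty from those of its paralog HSPA1A. With nelfinavir alone 14 of the 18 fell (median −0.37), as did 2 of the 8 TRiC genes and 8.84% of all genes. On adding nelfinavir to bortezomib 16 rose and 1 fell (median 0.89), against 15.6% of all genes called higher and 13.4% lower. On adding ISRIB to bortezomib 2 rose and 4 fell, with a median of −0.15, where the TRiC genes had −0.21. There 6.91% of all genes were called higher and 5.34% lower.

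The mean profile of the 8 TRiC genes, as log2 ratios of mean CPM to DMSO, stood at 0.56 for bortezomib, 0.67 when nelfinavir was combined with it, 0.33 when ISRIB was, −0.13 for nelfinavir and 0.05 for ISRIB. Likeness to it was measured as the root mean square difference over these 5 groups, among 5900 genes of at least 20 CPM. The 5 most similar genes outside the complex were SNRNP48 (0.05), a protein of the minor spliceosome, DNAJC7 (0.06), a co-chaperone of HSP70 and HSP90, KPNA6 (0.06), an importin alpha, FAM210A (0.06), a mitochondrial protein, and PPP2CA (0.07), the catalytic subunit of phosphatase 2A. These were also the 5 most similar with library totals alone. That is no separate check, since a change of scaling shifts a gene and the mean profile by nearly the same amount. Of the TRiC genes themselves, which enter the mean, CCT5 (0.07) and CCT8 (0.07) followed it closely, and CCT4 (0.24), CCT2 (0.24) and TCP1 (0.44) were the furthest from it.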

How the data were processed

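RNA was sequenced from 24 HepG2 cultures, 4 biological replicates for each of 6 groups. The deposited values are unnormalized counts per gene, which the authors made from QuantSeq 3′ mRNA-Seq FWD reads (80 bp, single-end) with cutadapt 2.8 and STAR on hg19 (GRCh37), as the submitters' processing notes list them. How strand and molecular identifiers were handled in counting is not given in the sources used here.

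Groups were taken from the labels. Low counts were removed by filterByExpr (at least 5 in a library of median size, 25 in total), and counts were scaled with TMM factors and tested with the quasi-likelihood test of edgeR 4.0.16 (R 4.3.3), with 1 coefficient per group over all 24 libraries, with Benjamini-Hochberg adjustment over all genes tested and a threshold of 0.05. The test was checked on simulated counts in which a small part of the genes changed, evenly up and down. Such counts cannot bear on the choice of scaling. Intervals are 95% intervals from this model. Interactions are the change on adding a drug with bortezomib minus that without.

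The alternatives were upper-quartile or RLE factors, library totals alone, TMM without the 13 mitochondrially encoded genes, no filter, the default filter (10 and 15 counts), DESeq2 1.42.0, only the groups compared, a replicate block and each library left out. Leaving out pairs of libraries was added after the data were seen. Near copies were searched with BLAST 2.17.0 and GENCODE 44 lifted to GRCh37, and promoters were taken from RefSeq. The planned comparison of protein sequences was not run. The 8 genes and the lists were chosen with earlier results of these data known. Named were the 8 genes, overlapping genes, the called gene with the smallest p in each direction of each list for bortezomib against DMSO, and the 5 genes most like the mean profile. ACTB and ACTG1 were named outside this rule, after their values were seen.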

Additional observations from a re-analysis of the deposited data

Results flagged for a closer look

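Of the 48 sets of 4 libraries (8 genes in 6 groups), 3 had a library set apart from the others by more than Dixon's 95% critical value, and chance flags about 1 in 20 such sets. CCT2 in bortezomib with ISRIB had its lowest library, replicate 3, at 206 CPM. CCT3 in bortezomib with nelfinavir had its highest, replicate 3, at 468 CPM. CCT6A in DMSO had its highest, replicate 1, at 573 CPM.

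The change on adding nelfinavir differed between cells with and without bortezomib for TCP1, by 0.39 on the log2 scale (SE 0.121, edgeR adjusted p = 0.0201), and for CCT6A, by 0.48 (SE 0.10, edgeR adjusted p = 0.000615). For CCT6A the call for nelfinavir alone was lower, and the value in the presence of bortezomib was above 0 but not called.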

How the results depend on the processing

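Library totals alone changed the comparisons of bortezomib with its absence. For bortezomib against DMSO, 2 TRiC genes were then called higher and 2 lower, in place of 8 and 0, and CCT2 (−0.21), CCT3 (−0.094), CCT6A (−0.12) and CCT7 (−0.25) changed sign. For bortezomib with nelfinavir against nelfinavir, 3 in place of 8 were called higher, with CCT7 at −0.0071. For bortezomib with ISRIB against ISRIB, 1 was called higher and 5 lower in place of 4 and 0, with CCT2 at −0.51, CCT3 at −0.43, CCT4 at −0.048, CCT5 at −0.15, CCT6A at −0.38 and CCT8 at −0.30. ACTG1 went to −0.10.

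For bortezomib with nelfinavir against bortezomib, 2 were called higher, and 0 with upper-quartile factors, library totals alone or only the groups compared, 1 without the mitochondrially encoded genes, 4 with DESeq2, 4 without both replicates 1 and 2 of the combination and 0 without both replicates 3 and 4. For bortezomib with ISRIB against bortezomib, 4 were called lower, and 2 with no filter, 1 with only the groups compared and 0 without both replicates 3 and 4 of the combination. Library totals alone added CCT2 to the genes called lower there. The interaction with nelfinavir had 2 called higher, and 4 with DESeq2 or without both replicates 1 and 2. That with ISRIB had 0 called lower, and 1 with no filter or DESeq2.

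With 1 library left out, the calls ran from 6 to 8 higher for bortezomib, from 1 to 2 lower for nelfinavir, from 0 to 4 higher on adding nelfinavir to bortezomib, from 0 to 4 lower on adding ISRIB to it, 8 higher throughout for bortezomib in the presence of nelfinavir, from 3 to 4 higher in the presence of ISRIB, from 2 to 3 higher for the interaction with nelfinavir and from 0 to 1 lower for that with ISRIB. In 55 fits a gene called in neither changed sign, with values of at most 0.24. Causes were not tested.

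The replicate numbers were not taken to pair the libraries, since they are not said to mark shared cultures. A correlation over 0.1 was more frequent among same-numbered pairs, in 16 of 60 (26.7%), than among others, in 29 of 180 (16.1%). As a hint that numbers may share something, 13 of 24 libraries were closest to a library of their own number, where 6 would be if numbers carried no information. For ISRIB, unlike the other groups, the replicate numbers do not follow the order of the S numbers in the sample titles. This check and the replicate block used the replicate numbers as given, so ISRIB libraries may be matched wrongly. With the replicate block, 8 TRiC genes were called higher with bortezomib, and the counts of the other comparisons stayed within 1.5 times. With 4 libraries a group and 12415 to 20342 TRiC counts per library, changes near 1.2-fold, as for CCT2 and CCT7, were at the edge of what was called.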
